A study of Mus musculus with 6 samples.

Results

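Transcripts of 8 enzymes of heme synthesis were followed in mouse liver at weeks 0, 2 and 7. The genes were taken from a list of pathway members (Alas1, Alas2, Alad, Uros, Urod, Cpox, Ppox and Fech) and found by gene symbol; all 8 were among the 54446 genes of the table and all 8 were among the 15368 that passed the filter on low counts. In the table they carry the Ensembl identifiers ENSMUSG00000032786 (Alas1), ENSMUSG00000025270 (Alas2), ENSMUSG00000028393 (Alad), ENSMUSG00000030979 (Uros), ENSMUSG00000028684 (Urod), ENSMUSG00000022742 (Cpox), ENSMUSG00000062729 (Ppox) and ENSMUSG00000024588 (Fech). The list does not hold every enzyme of the pathway. Poly-A RNA of liver cells was sequenced in 6 libraries, 2 per week. The groups are week 0, week 2 and week 7 of treatment, which the title of the series names as MET/CAT and SB transposase; that title also mentions untreated cells without saying which samples those are. MET is a receptor tyrosine kinase gene and SB (Sleeping Beauty) transposase inserts DNA that carries its recognition ends into chromosomes. The labels do not say what CAT stands for, which promoter drives the introduced genes, how old the mice were, what sex they had or whether a library holds 1 animal or a pool. The strain is labelled as FVB/N mixed with C57BL/6 for the first week 0 library; in the other labels the number after C57BL/ climbs from sample to sample, so the background is unsure. No sample is labelled as untreated at week 2 or 7, so age and treatment cannot be told apart.

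Heme is made from glycine and succinyl-CoA in a path that starts and ends in mitochondria and passes through the cytosol. Aminolevulinate synthase (ALAS) makes the first precursor and sets the pace of the path in liver. It has a form found in most tissues, encoded by Alas1, whose production heme itself holds down, and a form of red cell precursors, encoded by the X-linked gene Alas2. Alad joins aminolevulinate into porphobilinogen, Uros closes the porphyrin ring, Urod, Cpox and Ppox trim and oxidise it, and Fech inserts iron. Hepatocytes spend much of the heme they make on cytochrome P450 enzymes.

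Alas1 and Alas2 encode forms of the same enzyme and followed different courses here, so the windows around their annotated transcription starts are shown. Each window runs from 250 bases before to 50 bases after a RefSeq start in build GRCm38.p6, is written 5′ to 3′ on the strand of the gene, and has in capitals every match, on either strand, to any of 4 motifs: AGATAA (which red cell factors such as GATA1 bind), the nuclear respiratory factor 1 motif (its matches are the capitals of the Alas1 window), CACGTG (an E-box) and CCAAT. The Alas1 window is chr9:106247905-106248204 on the minus strand and the Alas2 window is chrX:150547167-150547466 on the plus strand.
Alas1: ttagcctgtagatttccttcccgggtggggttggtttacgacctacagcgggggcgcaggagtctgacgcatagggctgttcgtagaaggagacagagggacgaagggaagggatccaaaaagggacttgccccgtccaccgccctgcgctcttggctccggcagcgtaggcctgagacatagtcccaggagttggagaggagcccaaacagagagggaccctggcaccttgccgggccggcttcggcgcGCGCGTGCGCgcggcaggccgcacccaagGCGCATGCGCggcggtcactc
Alas2: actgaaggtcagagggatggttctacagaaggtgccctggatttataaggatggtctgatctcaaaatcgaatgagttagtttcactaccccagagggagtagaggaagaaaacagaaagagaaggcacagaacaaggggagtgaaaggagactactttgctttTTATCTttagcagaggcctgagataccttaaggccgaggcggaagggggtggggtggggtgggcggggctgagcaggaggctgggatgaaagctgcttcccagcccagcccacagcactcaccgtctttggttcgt
The Alas1 window held 2 matches to the nuclear respiratory factor 1 motif, both after the annotated start, and a further RefSeq start of Alas1 lies downstream, so that the same 2 matches come before that start. The Alas2 window held 1 match to AGATAA, 86 bases before the start, and none to the other motifs. Promoter windows were found for 7 of the 8 genes (not Fech), 10 windows in all. AGATAA was present for 2 of the 7 genes (Alas2 and Cpox), the nuclear respiratory factor 1 motif for 2 (Alas1 and Uros), CACGTG for 3 (Alad, Urod and Uros) and CCAAT for 3 (Alad, Ppox and Urod). Among all 32851 windows of the same length, 11.2% held AGATAA, 4.6% the nuclear respiratory factor 1 motif, 7.15% CACGTG and 37.4% CCAAT. These shares are per window, while the enzymes were counted per gene, by a match in any window of the gene. A gene with more windows has more room for a match, so the rates are not on the same scale. A match describes the letters only and says nothing of binding.

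Library totals ran from 49353453 to 58434358 deposited counts, and about 4 of these seem to stand for 1 read pair. The 8 enzymes together took 0.088% and 0.0926% of the week 0 counts, against 0.104% and 0.109% in the week 2 libraries and 0.133% and 0.124% in those of week 7. Levels are given as CPM, counts per 1e6 of the TMM-scaled library size. Alb, the albumin gene and the defining hepatocyte marker, stood between 54070 and 98368 CPM. Of 6 hepatocyte markers, 2 were higher (Alb and Fgb) and 4 lower (Apoa1, Apob, Ttr and Serpina1c) at week 2 against week 0, and 2 were higher and 3 lower at week 7 against week 0. Over all genes tested, 9.81% were called higher and 8.81% lower in the first comparison, and 7.58% and 6.23% in the second. The week 2 libraries differ from the others in genes that mark sex: Xist, the X-inactivation RNA, stood at 221 and 216 CPM there and at most at 0.311 CPM elsewhere, and 4 Y-linked genes (Ddx3y, Eif2s3y, Kdm5d, Uty) had 0 counts there, which allows up to 0.201 CPM. Every comparison with week 2 is therefore a comparison of time and of sex together, and the 2 cannot be told apart. The labels do not say that libraries of a week came from separate animals, so p-values measure the spread between these libraries. All comparisons come from 1 edgeR quasi-likelihood fit to the 6 libraries, with Benjamini-Hochberg adjustment over all 15368 genes, and a gene was called at an adjusted p under 0.05. Values after ± are SDs over 2 libraries for CPM and standard errors for log2 fold changes.

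**Figure D1:**
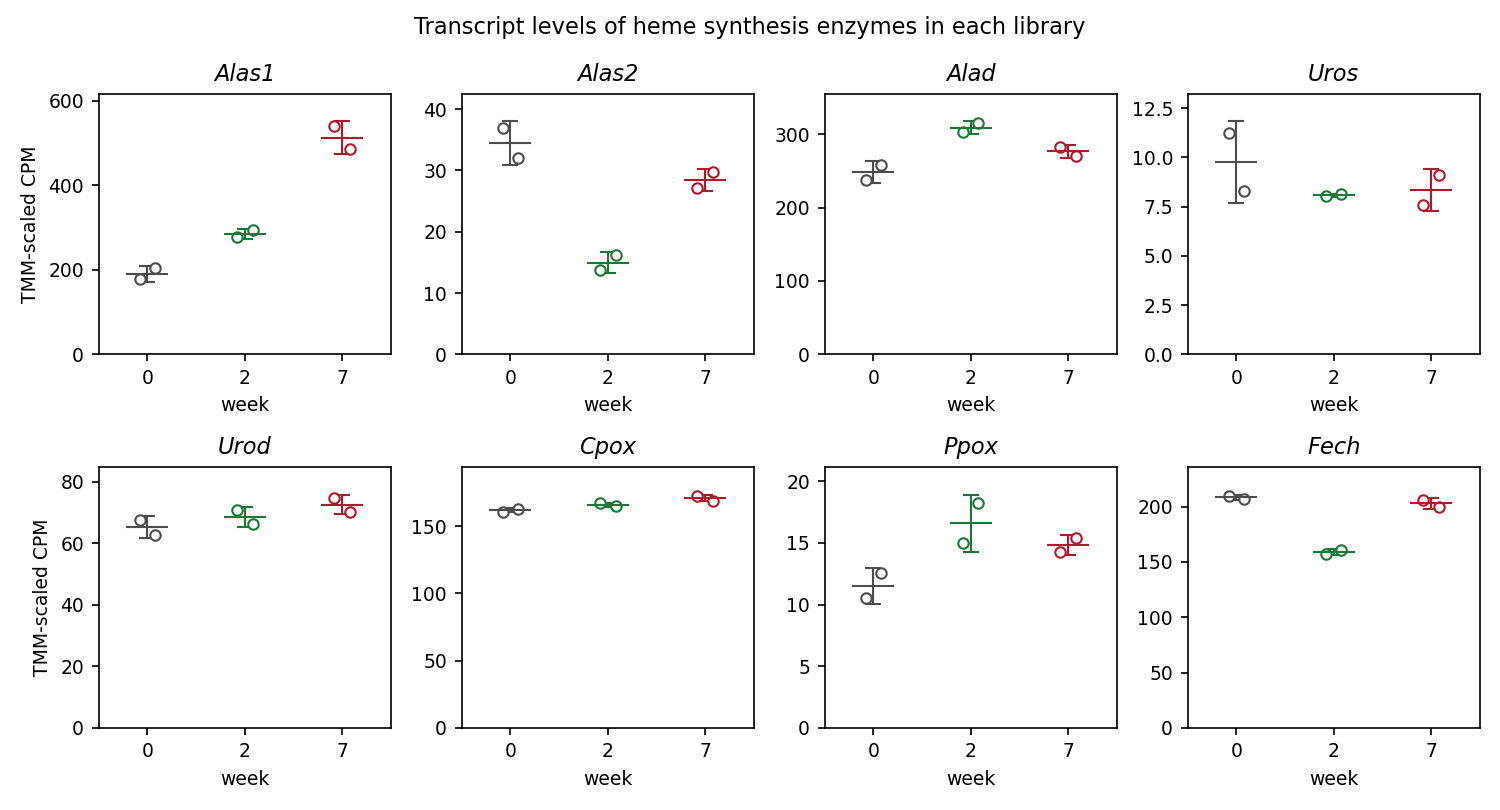
TMM-scaled CPM (vertical axis, starting at 0, a separate scale per gene) of the 8 heme synthesis enzymes at weeks 0, 2 and 7; points are libraries, horizontal bars the mean of 2 and whiskers the SD. Alas1 climbs from week to week, Alas2 and Fech are low at week 2 (the libraries with Xist), and Cpox stays between 161 and 172 CPM in all 6 libraries.

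Alas1 had the largest change of the 8 genes between week 0 and week 7. Its level was 177 and 203 CPM at week 0, 277 and 294 CPM at week 2, then 540 and 486 CPM at week 7. No library of a week overlapped those of another week, and both week 7 libraries stood above all others. Alas1 rose 2.70-fold from week 0 to week 7, from 190.3 ± 18.5 to 513 ± 38.1 CPM (log2 fold change 1.43 ± 0.08, edgeR adjusted p = 0.000117). It rose 1.5-fold from week 0 to week 2 (log2 fold change 0.59 ± 0.08, adjusted p = 0.00348) and 1.80-fold from week 2 to week 7 (0.84 ± 0.08, adjusted p = 0.000662). In bulk liver RNA, more cells with a transcript and more of it per cell cannot be told apart. Of the 8 enzymes Alas1 alone was called between weeks 7 and 0, 1 of 8 against 13.8% of all genes tested. That is 1 higher, where 7.58% of all genes were, and 0 lower, where 6.23% were. At an unadjusted p under 0.05, Alas2 (lower), Alad and Ppox (both higher) were also past the line.

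Alas2, the red cell form, took a different course. It had 36.9 and 32.0 CPM at week 0, 13.7 and 16.1 CPM at week 2, then 27.1 and 29.7 CPM at week 7. Libraries of week 2 lay far below the other 4. Alas2 fell 2.31-fold from week 0 to week 2 (log2 fold change -1.21 ± 0.12, adjusted p = 0.000171) and rose 1.91-fold from week 2 to week 7 (0.93 ± 0.12, adjusted p = 0.000811). Between week 0 and week 7 the log2 fold change was -0.28 ± 0.12 and was not called (adjusted p = 0.176). Exons of Alas2 and of Apex2, on the opposite strand, overlap by 311 bases in GENCODE M21, and the library kit does not mark strand. Apex2 stood at 2.89 to 5.64 CPM over the 6 libraries and was not called in any comparison.

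Per kilobase of exon of the coding transcripts (GENCODE M21, basic set), Alas1 stood at 48.1 ± 4.69 CPM per kb and Alas2 at 16.9 ± 1.73 CPM per kb at week 0. The ratio of Alas1 to Alas2 on this scale was 2.84 at week 0 (2.47 and 3.28 in the libraries), 9.84 at week 2 (10.4 and 9.39) and 9.28 at week 7 (10.2 and 8.41). It was thus of similar size at weeks 2 and 7. The terms behind it differed: at week 2 Alas1 was at 72.2 ± 2.99 and Alas2 at 7.33 ± 0.826 CPM per kb, and at week 7 they were at 129.6 ± 9.63 and 14.0 ± 0.907 CPM per kb.

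Alad, which makes porphobilinogen, had 238 and 259 CPM at week 0, 303 and 315 at week 2, then 283 and 269.97 at week 7. Its week 2 libraries were the highest and its week 0 libraries the lowest, without overlap. Alad rose 1.24-fold from week 0 to week 2 (log2 fold change 0.31 ± 0.05, adjusted p = 0.00286). The log2 fold change was 0.16 ± 0.05 at week 7 against week 0 (adjusted p = 0.0818) and -0.16 ± 0.05 at week 7 against week 2 (adjusted p = 0.0606). The last of these was called under 7 of 16 other settings, with adjusted p between 0.0165 and 0.0493, and in no setting did its sign change.

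Uros, which closes the ring of the first porphyrinogen, was among the scarcest of the 8 transcripts. It had 11.2 and 8.27 CPM at week 0, 8.02 and 8.14 at week 2, then 7.59 and 9.09 at week 7. Libraries of week 0 and week 7 overlapped, and no comparison was called (adjusted p between 0.387 and 0.910). Urod, the next enzyme, stood at 67.8 and 62.7, then 71.0 and 66.4, then 74.8 and 70.4 CPM, and no comparison was called (adjusted p between 0.223 and 0.560). Cpox, which acts after Urod, had 161 and 163, 167 and 165, and 172 and 169 CPM, a range of a few percent. Its log2 fold change at week 7 against week 0 was 0.08 ± 0.04 (adjusted p = 0.309).

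Ppox, which oxidises protoporphyrinogen, had 10.5 and 12.5 CPM at week 0, 15.0 and 18.2 at week 2, then 14.2 and 15.4 at week 7. Libraries of week 0 were below the other 4. The rise at week 2 was 1.44-fold (log2 fold change 0.53 ± 0.15, adjusted p = 0.0436), a call lost when any 1 of the 6 libraries was left out, with limma voom and with only the 4 libraries compared (adjusted p between 0.05004 and 0.247). Annotated Ppox exons overlap those of B4galt3, on the opposite strand, by 791 bases, none of them in the basic coding transcripts of Ppox. B4galt3 stood at 6.49 to 8.87 CPM and was not called in any comparison.

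Fech, which puts iron into protoporphyrin, had 210.0 and 207 CPM at week 0, 157 and 161 at week 2, then 206 and 199.6 at week 7. Libraries of week 2 stood apart below the other 4. Fech fell 1.31-fold from week 0 to week 2 (log2 fold change -0.39 ± 0.04, adjusted p = 0.000276) and rose 1.28-fold from week 2 to week 7 (0.35 ± 0.04, adjusted p = 0.000546). At week 7 against week 0 the log2 fold change was -0.04 ± 0.04 (adjusted p = 0.624).

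At week 2 against week 0, 5 of the 8 enzymes were thus called, where 18.6% of all genes tested were. Alas1, Alad and Ppox were higher, 3 of 8 against 9.81% of all genes. Alas2 and Fech were lower, 2 of 8 against 8.81%. At week 7 against week 2, Alas1, Alas2 and Fech were higher, 3 of 8 against 10.1%, and 0 of 8 were lower against 9.73%, and 19.8% of all genes were called in either direction. At an unadjusted p under 0.05, Alad was lower at week 7 against week 2. With scaling by total counts only, the split over all genes at week 2 against week 0 went from 1508 higher and 1354 lower to 2007 and 913, and the median log2 fold change of all genes to 0.105; the same 5 enzymes were called, in the same directions. The median log2 fold change of the 8 was 0.12 at week 7 against week 0, 0.06 at week 2 against week 0 and 0.06 at week 7 against week 2, and that of all genes lay between -0.0042 and 0.0137. The first 2 comparisons share the week 0 libraries.

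**Figure D2:**
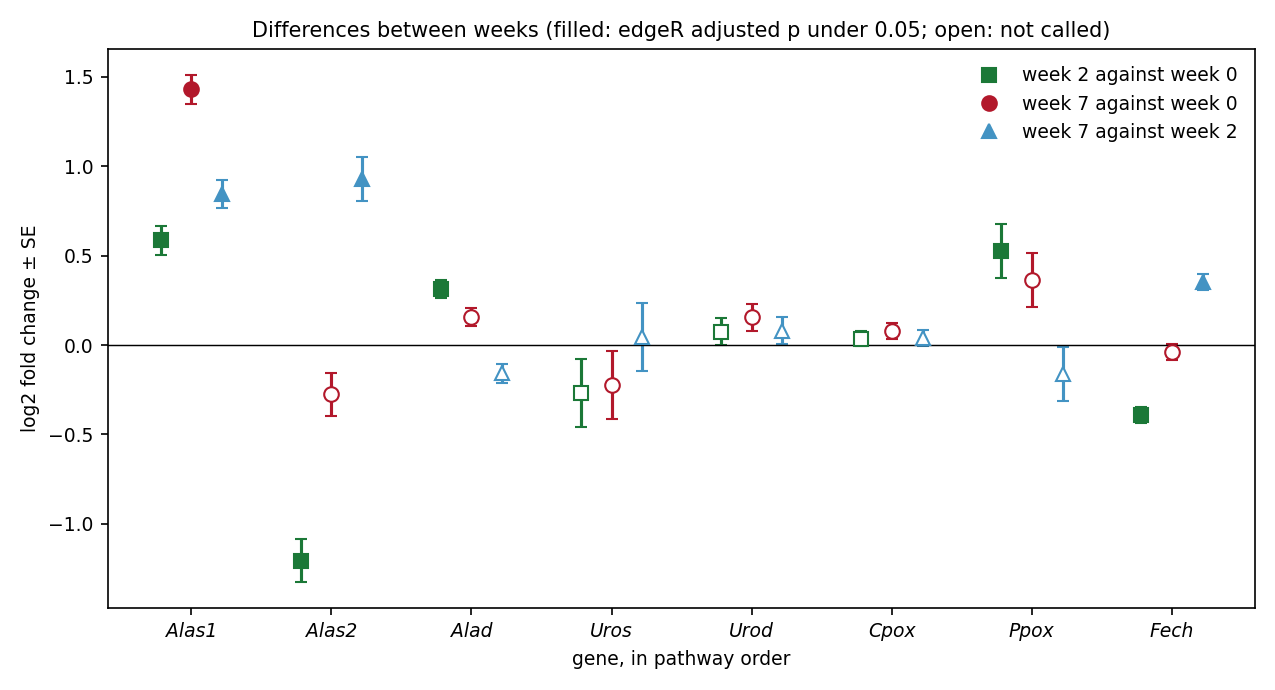
Log2 fold change ± SE (vertical axis) of each enzyme, in pathway order (horizontal axis), for the 3 comparisons of weeks; filled symbols passed an edgeR adjusted p under 0.05 and open symbols did not. Alas1 lies above 0 in all 3 comparisons, with all 3 filled, while Uros, Urod and Cpox have no filled symbol.

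On the per-length scale Alad transcripts were the most abundant of the 8 in every week, at 195 ± 11.5, 243 ± 6.70 and 218 ± 7.28 CPM per kb. At week 0, Cpox (52.3 ± 0.537), Alas1 (48.1 ± 4.69) and Urod (43.8 ± 2.42 CPM per kb) followed close together, and the libraries of Alas1 and Urod overlapped. With exon length taken over all annotated transcripts the order of these 3 was Alas1, Urod, Cpox, so their order is not settled. Fech (29.0 ± 0.286), Alas2 (16.9 ± 1.73), Ppox (6.33 ± 0.794) and Uros (4.10 ± 0.876 CPM per kb) came last. Ppox and Uros also changed places at week 0 with the length over all transcripts (2.55 and 2.73 CPM per kb). At week 7 Alas1 was second to Alad under both lengths, at 129.6 ± 9.63 CPM per kb, and Cpox was at 55.1 ± 0.783 CPM per kb.

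Partners of the mitochondrial end of the path moved with Alas2 and Fech at week 2. Abcb10, a mitochondrial inner membrane transporter needed for heme synthesis in red cell precursors, had 60.3 and 60.5 CPM at week 0, 29.5 and 27.5 at week 2, then 54.5 and 54.3 at week 7. Its week 2 libraries were separate from the rest. Abcb10 fell 2.12-fold at week 2 (log2 fold change -1.09 ± 0.08, adjusted p = 1.48e-05) and rose 1.91-fold from week 2 to week 7 (adjusted p = 4.21e-05). Slc25a37, which encodes mitoferrin 1, an importer of iron into mitochondria, was chosen after its values were seen. It had 34.3 and 33.7 CPM at week 0, 21.9 and 19.9 at week 2, then 30.3 and 32.1 at week 7. Slc25a37 fell 1.63-fold at week 2 (log2 fold change -0.70 ± 0.09, adjusted p = 0.000931). At week 7 against week 0 neither Abcb10 nor Slc25a37 was called (log2 fold changes -0.15 ± 0.07 and -0.12 ± 0.09).

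Of the red cell markers tested, none was called lower at week 2 against week 0, where Alas2 fell. The summed level of 14 erythroid markers was 521 and 549 CPM at week 0, 612 and 613 at week 2, then 493 and 501 at week 7. Of these, 9 were tested, and at week 2 against week 0, 3 were called higher (Hba-a1, Hbb-bs and Sptb) and 0 lower. The shares of all genes tested were 9.81% and 8.81%. Tfrc, the transferrin receptor gene, had the lowest value of the 9, a log2 fold change of -0.29 ± 0.14 with no overlap between the libraries (15.3 against 18.7 CPM, adjusted p = 0.183). Their median log2 fold change was 0.25, against 0.0137 for all genes. Nearly all of the sum was globin: 4 globin genes, of which Hba-a1 and Hba-a2 are near-identical copies, summed to 500.4 and 525 CPM at week 0, 592 and 590.2 at week 2, then 473 and 480.1 at week 7. Gata1, Ermap and Rhag, which define red cell precursors, had 0 counts in all 6 libraries, which allows up to 0.245, 0.201 and 0.228 CPM at weeks 0, 2 and 7 (12 counts, or 3 read pairs; counting error only). Klf1, a red cell transcription factor, was at 2.28 to 4.37 CPM. Alas2 transcripts equalled 7.38% and 6.08% of the globin sum at week 0, 2.32% and 2.73% at week 2, then 5.74% and 6.20% at week 7.

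**Figure D3:**
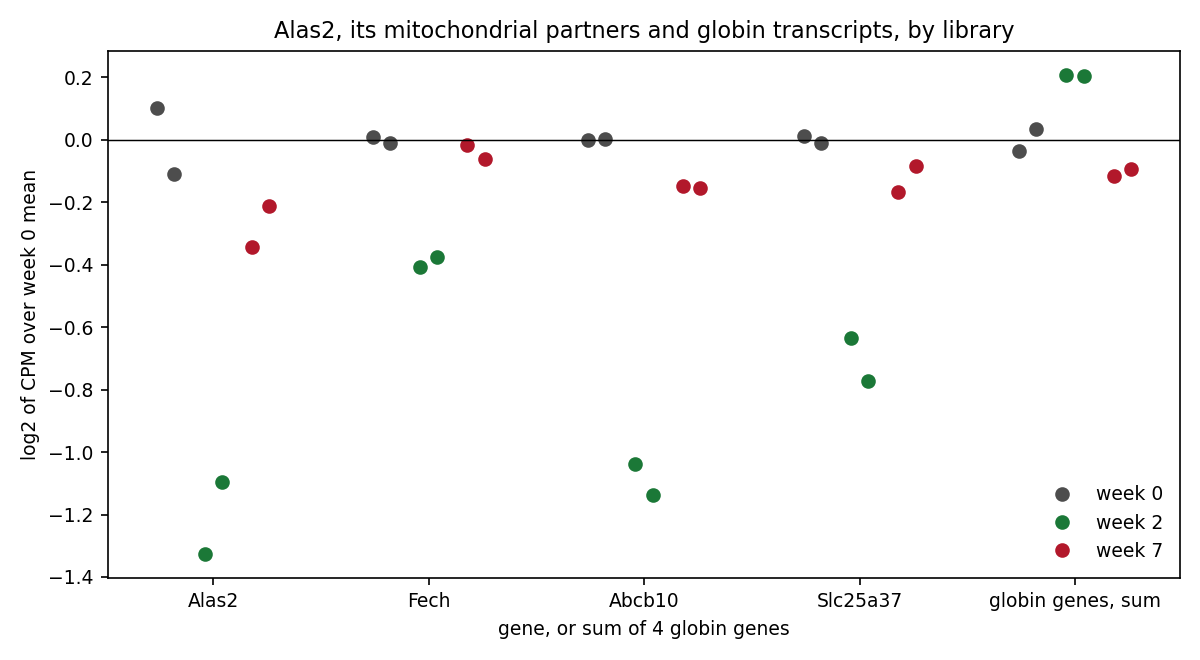
Log2 of the CPM of each library over the week 0 mean (vertical axis) for Alas2, Fech, Abcb10, Slc25a37 and the sum of 4 globin genes (horizontal axis); each point is 1 library, coloured by week. The week 2 libraries lie between -1.33 and -0.375 for the 4 genes and at 0.208 and 0.203 for globin.

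The list of heme and porphyrin transport and of mitochondrial partners holds 19 genes, Abcb10 and Slc25a37 included, and all were tested. Of these, 2 were called higher and 3 lower at week 7 against week 0, where 7.58% and 6.23% of all genes tested were. At week 2 against week 0, 3 were called higher and 4 lower, where 9.81% and 8.81% of all genes were. Slc48a1, which moves heme out of endolysosomes, had 55.9 and 51.0 CPM at week 0, 63.6 and 56.6 at week 2, then 90.6 and 87.5 at week 7. It rose 1.67-fold from week 0 to week 7 (log2 fold change 0.74 ± 0.08, adjusted p = 0.000557). Flvcr2, a membrane transporter of the FLVCR family, rose from 0.932 ± 0.410 to 4.86 ± 0.015 CPM (adjusted p = 0.0013) and stood at 6.13 ± 0.552 CPM at week 2. Abcg2, an exporter of porphyrins, fell 1.49-fold from 122 ± 1.51 to 81.9 ± 4.14 CPM at week 7 (adjusted p = 0.000572), and was lower at week 2, at 36.0 ± 0.0357 CPM (adjusted p = 2.19e-07). Pgrmc1, a heme-binding membrane protein, fell 1.37-fold from week 0 to week 7, from 1422 ± 12.9 to 1039 ± 26.1 CPM (adjusted p = 2.53e-05). Clpx, a mitochondrial unfoldase that acts on ALAS, had 49.99 and 45.7 CPM at week 0, 63.4 and 62.3 at week 2, then 38.9 and 39.3 at week 7. Clpx was called higher at week 2 than at week 0 (log2 fold change 0.39 ± 0.08, adjusted p = 0.0073), a call lost without week 0 replicate 2. Clpx fell from week 2 to week 7 (log2 fold change -0.68 ± 0.08, adjusted p = 0.000325). At week 7 it was also called lower than at week 0 (log2 fold change -0.29 ± 0.08, adjusted p = 0.0378).

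Of 4 genes of heme breakdown, Hmox1 was the only one called at week 7 against week 0, where 0 rose and 1 fell. Over all genes tested, 7.58% were called higher and 6.23% lower in that comparison. Hmox1 encodes the inducible heme oxygenase and had 52.1 and 53.97 CPM at week 0, 57.6 and 56.2 at week 2, then 30.03 and 26.0 at week 7. Both libraries of week 7 lay below the other 4. Hmox1 fell 1.89-fold from week 0 to week 7 (log2 fold change -0.92 ± 0.09, adjusted p = 0.000248) and 2.03-fold from week 2 to week 7 (adjusted p = 6.75e-05). Macrophages of liver also express Hmox1, and all 7 Kupffer cell markers fell at week 7 against week 0, with a median log2 fold change of -0.58. Their summed level was 413 and 411 CPM at week 0, 577 and 575 at week 2, then 297 and 292 at week 7, and their part in the change of Hmox1 was not tested. Hmox2, the constitutive form, was not called in any comparison of the fit to all 6 libraries (39.4 ± 0.399 CPM at week 0 and 42.1 ± 8.08 at week 7).

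Among 5 genes that clear heme and hemoglobin from plasma, 1 was called higher and 2 lower at week 7 against week 0. The shares of all genes tested were 7.58% and 6.23%. Lrp1, a receptor that takes up heme bound to hemopexin, rose from 474 ± 0.432 to 633 ± 22.7 CPM (adjusted p = 0.000303). Hpx, which encodes hemopexin, went from 3528 ± 68.9 to 3171 ± 68.3 CPM (adjusted p = 0.00543, or 0.057 without week 0 replicate 2). Cd163, the macrophage receptor for hemoglobin bound to haptoglobin, went from 8.21 ± 1.62 to 3.04 ± 0.978 CPM (adjusted p = 0.00852, or 0.052 without week 0 replicate 1). Kupffer cell markers fell beside it, with the values given above. At week 2 Cd163 stood at 14.8 ± 2.77 CPM and was called higher than at week 0 (log2 fold change 0.85 ± 0.25, adjusted p = 0.0480). That call was lost with the replicate block (adjusted p = 0.0858) and when any 1 library of week 0 or week 2 was left out. From week 2 to week 7 Cd163 fell (log2 fold change -2.28 ± 0.26, adjusted p = 0.000483). Hp, which encodes haptoglobin, fell from 1829 ± 8.94 CPM at week 0 to 1255 ± 9.78 CPM at week 2 (adjusted p = 2.57e-06) and rose from there to 1822 ± 50.6 CPM at week 7 (adjusted p = 3.26e-06).

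Of the genes that act on the first step in liver, 13 were in the list and 12 tested (Npas2 had too few counts). At week 7 against week 0, 3 were called higher and 1 lower, where 7.58% and 6.23% of all genes tested were. At week 2 against week 0, 2 were called higher and 4 lower, where 9.81% and 8.81% of all genes were. Ppargc1a, a coactivator that raises Alas1 in fasting, had 3.43 and 3.11 CPM at week 0, 12.9 and 9.17 at week 2, then 8.47 and 7.90 at week 7. Ppargc1a rose 2.504-fold at week 7 (log2 fold change 1.32 ± 0.21, adjusted p = 0.00355) and 3.37-fold at week 2 (adjusted p = 0.000447). Week 2 was the highest for Ppargc1a and week 7 for Alas1, though Ppargc1a was not called between those weeks (adjusted p = 0.176). Nr1d1, a clock gene whose product is a heme-binding repressor, had 56.0 and 55.8 CPM at week 0, 25.5 and 27.7 at week 2, then 53.3 and 49.9 at week 7, a 2.10-fold fall at week 2 (adjusted p = 2.67e-05). The labels give no time of day for the samples. Foxo1, a transcription factor of the fasting response, rose from 43.8 ± 0.365 to 54.8 ± 0.154 CPM at week 7 (adjusted p = 0.0191), as did Rxra, the partner of several nuclear receptors, from 376 ± 5.11 to 469 ± 12.3 CPM (adjusted p = 0.00191). Nr0b2, a corepressor of nuclear receptors, went from 35.9 ± 1.02 to 25.1 ± 1.36 CPM at week 7 (adjusted p = 0.00763, or 0.0514 with week 0 replicate 1 left out and 0.0524 with week 7 replicate 2 left out). The xenobiotic receptor gene Nr1i2 rose 1.54-fold at week 2 (adjusted p = 0.000192) and was not called at week 7 against week 0 (adjusted p = 0.348).

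Of 20 genes of liver proteins that carry heme, 4 were called higher and 7 lower at week 7 against week 0. The shares of all genes tested were 7.58% and 6.23%. At week 2 against week 0, 4 were called higher and 9 lower, where 9.81% and 8.81% of all genes were. The median log2 fold changes of the 20 were -0.08 at week 7 and -0.19 at week 2, against 0.0016 and 0.0137 for all genes. Cyp1a2, a P450 of the central vein region, had 655 and 657 CPM at week 0, 568 and 555 at week 2, then 1198 and 1146 at week 7. It rose 1.79-fold from week 0 to week 7 (log2 fold change 0.84 ± 0.03, adjusted p = 1.4e-06). Cyp2a5 rose 2.16-fold, from 503 ± 39.0 CPM at week 0 to 1085 ± 16.5 CPM at week 7 (adjusted p = 2.96e-06). Cyp7a1, the rate-limiting enzyme of bile acid synthesis, rose from 72.0 ± 4.28 to 131 ± 8.501 CPM (adjusted p = 8.41e-05). Cat, which encodes the hemoprotein catalase, fell 1.19-fold from 3071 ± 12.98 to 2580 ± 57.9 CPM (adjusted p = 0.000383), and Cyp51, a P450 of cholesterol synthesis, fell 1.54-fold from 199 ± 0.272 to 129 ± 3.99 CPM (adjusted p = 6.44e-05). At week 2 against week 0, Cyp7a1 rose 2.09-fold to 150.2 ± 6.08 CPM (adjusted p = 1.001e-05) and Cyp2a5 rose 1.69-fold (adjusted p = 1.17e-05). At week 2 Cyp3a11 was 1.64-fold lower than at week 0 (adjusted p = 8.69e-07) and Cyp2c29 1.58-fold lower (adjusted p = 3.08e-06). Cyp4a14, a fatty acid hydroxylase, rose 25.01-fold from week 0 to week 2, from 3.97 ± 1.24 to 99.3 ± 3.18 CPM (adjusted p = 1.52e-05), and fell to 4.19 ± 0.242 CPM at week 7 (adjusted p = 1.69e-05 against week 2). Cyp2b10, chosen after its values were seen, rose 13.7-fold at week 2, to 23.3 ± 0.239 CPM (adjusted p = 0.0263). Its week 0 level was low, at 1.70 ± 0.406 CPM (99 and 68 counts). Reads of near-identical P450 genes cannot be assigned with certainty from this table, so Cyp2a5, Cyp2b10, Cyp2c29, Cyp3a11 and Cyp4a14 are uncertain as single genes.

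**Figure D4:**
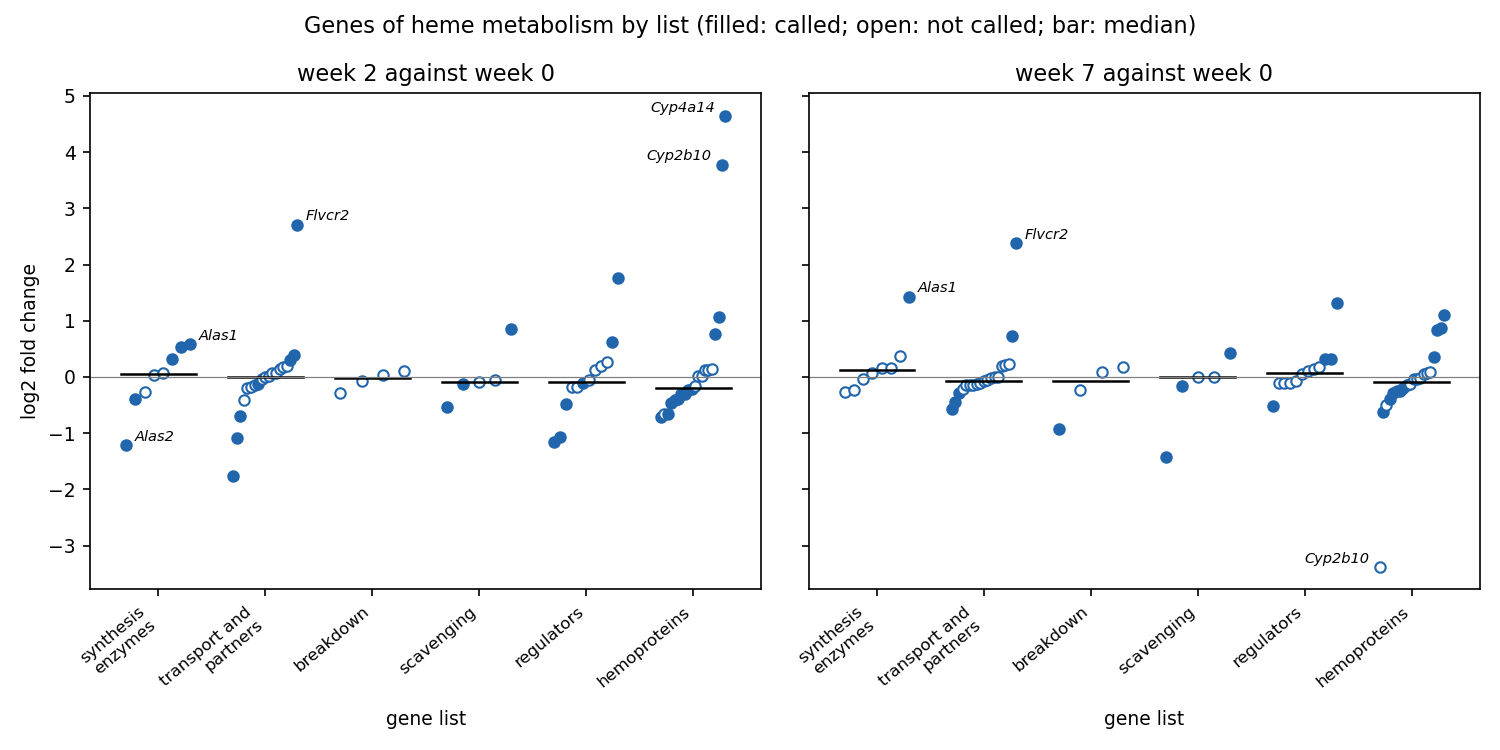
Log2 fold changes (vertical axis) of every tested gene in 6 lists of heme metabolism (horizontal axis) at week 2 and week 7 against week 0, with called genes filled, others open and a bar at the median of each list. Alas1 is the only filled point of the synthesis enzymes at week 7, and the medians of all 6 lists lie between -0.193 and 0.116; Cyp2b10 and Cyp4a14 are labelled for the size of their values, Cyp2b10 after its values were seen.

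The genes whose course over the 6 libraries was most like that of Alas1 were Plekhg6, Ccdc85b and Hhex, out of 8837 others whose mean reached 5 CPM. Likeness was the root mean square difference of log2 CPM after centring each gene on its own mean, which was 0.112 for Plekhg6, 0.134 for Ccdc85b and 0.134 for Hhex. Hhex, a transcription factor of liver, had 61.7 and 66.7 CPM at week 0, 80.7 and 83.1 at week 2, then 143 and 141 at week 7. For Alas2 the nearest out of 12001 whose mean reached 0.5 CPM were Tmx4 (0.0609), Gprin3 (0.096) and Ugt2b1 (0.0986). Tmx4, a thioredoxin-related membrane protein gene, had 24.8 and 24.0 CPM at week 0, 9.44 and 11.7 at week 2, then 19.8 and 22.3 at week 7. These points share libraries and weeks, and the likeness is a description.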

How the data were processed

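The authors deposited 1 table of estimated counts, by Ensembl gene and not scaled to depth, for 6 libraries; all values were whole. Per the submitters' processing notes, Bowtie 0.12.2 and build mm8 were used, with no role given. The counting program was not given in the sources used here, nor was its annotation. TruSeq V2 libraries were made from poly-A RNA and read as pairs, per the labels' protocols. Low values seem stepped (68.3% to 69.6% of values from 4 to 43 were a multiple of 4 or 1 above), so 1 read pair was taken as about 4 counts. Values without steps would also often meet this rule, and their expected share was not computed. The 4 counts per read pair, and the limits given for 0 counts, rest on this assumption. Of the identifiers, 54409 matched GENCODE M21 symbols.

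Tests used edgeR 4.0.16 under R 4.3.3 (filterByExpr, TMM, robust quasi-likelihood, 1 coefficient per week, 3 residual degrees of freedom, 2-sided tests); CPM is relative to 1e6 counts of scaled library size. Alternatives used DESeq2 1.42.0 and limma 3.58.1. The fit was also run on simulated counts with a smaller spread between libraries than in these data. That run therefore does not measure the error rate of the calls here. Lengths, promoters and figures used Python 3.11.15, pandas 2.3.3 and matplotlib 3.10.9. The members, lists, tests and naming rule were chosen with earlier results of these data known. The rule names all 8 enzymes, from each other list up to 2 called genes per direction and comparison, lowest adjusted p first (or, where none was called, the 1 of lowest p), and the 3 genes most like Alas1 and Alas2. Named by it but not described above are Blvrb, Ambp and Nr1i3. Blvrb was higher (adjusted p = 0.0188) and Nr1i3 lower (adjusted p = 0.0187) at week 7 against week 2. Ambp was lower at week 2 against week 0 (adjusted p = 0.0172). Each of these calls was lost under some of the other settings.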

Additional observations from a re-analysis of the deposited data

How the results depend on the processing

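The number of enzymes called was 1 at week 7 against week 0 under all 16 other settings, 4 or 5 at week 2 against week 0, and 3 or 4 at week 7 against week 2; the replicate block (the sample number as a term) gave 1, 5 and 3, as without it. Leaving out 1 library gave 1, 4, and 3 to 4. Differences between replicates of 1 week did not go with those of another (correlations of -0.00606, -0.0269 and -0.0552 across genes). No broad effect of the shared sample numbers was thus seen. These correlations cannot exclude pairing with small effects or effects on few genes. Over the 24 enzyme results, 363 values kept direction and side of the threshold, 8 lost the call (all Ppox at week 2 against week 0), 7 gained one (all Alad at week 7 against week 2) and 6 changed sign, none of them called. Those were Uros at week 7 against week 0 without week 0 replicate 1 (0.0121; -0.426 to 0.0121 over the libraries left out), Uros at week 7 against week 2 with upper-quartile scaling (-0.0088), with total counts only (-0.0091) and without week 7 replicate 2 (-0.0894; -0.0894 to 0.1706 over the libraries left out), and Cpox at week 7 against week 2 with upper-quartile scaling (-0.0154) and total counts only (-0.0145). Total counts only moved the median of all genes at week 2 against week 0 to 0.105. Calls over all genes fell from 2123 to 1328, 1380 and 1298 (week 7 against week 0, without week 0 replicate 1 or 2 or week 7 replicate 1), from 2862 to 1801 and 1826 (week 2 against week 0, without either week 2 library) and from 3040 to 1842 and 1923 (week 7 against week 2, likewise). Of 49 results for other named genes, none changed sign, 31 of their values lost a call and 1 gained one (Hmox2 at week 2 against week 0 without week 7 replicate 1, adjusted p = 0.04965). The cause was not tested. Uros and Ppox rest on 399 to 1079 counts a library.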
